A study of Homo sapiens with 10 samples.

Results

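The genes described here are the members of the human zinc finger family whose symbols begin with ZSCAN or ZKSCAN and a number, read from a table of 42335 genes in H9 cells, a human embryonic stem cell line, on their way to neural progenitors. The table held 33 such symbols. The pseudogenes ZSCAN12P1 and ZSCAN5DP and the antisense RNAs ZKSCAN7-AS1 and ZSCAN16-AS1 were left out by the rule, which left 29 members, 21 named ZSCAN and 8 named ZKSCAN. The rule works on names alone, so it also kept ZKSCAN2-DT, a noncoding RNA divergent to ZKSCAN2 that encodes no SCAN protein.

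A SCAN domain is a leucine-rich stretch near the amino end of these proteins through which they pair with themselves and with each other, and an array of C2H2 zinc fingers at the other end binds DNA. The ZKSCAN proteins, and some of the ZSCAN proteins, also carry a KRAB domain, which in many zinc finger proteins recruits the corepressor TRIM28 and with it enzymes that lay down silent chromatin. ZSCAN10 is best known from mouse embryonic stem cells, where it works with the pluripotency factors, and ZSCAN4 marks the cleavage-stage embryo and a small, passing fraction of mouse embryonic stem cells.

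RNA of whole cultures was sequenced in 10 libraries. The edited cells, V1PAKI here, carry the genotype label SOX1-OT V1 PAKI and the control cells, Ctrl, are wild type. Both are H9, and neither the editing design nor the number of clones is given in the labels. Each line has 1 library at day 0 (d0, stem cells), at day 4 (d4, embryoid bodies in suspension), at day 10 (d10, after the neural medium of day 4 and attachment at day 7), and 2 at day 16, named d16D and d16V. The labels do not spell out D and V; the protocol describes Sonic hedgehog protein and its pathway agonist SAG from day 10 for ventral telencephalon. All values are FPKM (fragment counts scaled for transcript length and for the size of the library), as the authors deposited them.

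SOX1-OT, the gene named in the genotype, was at 0.212 FPKM in V1PAKI and 1.87 FPKM in Ctrl at d16D, and at 1.22 FPKM in V1PAKI and 3.51 FPKM in Ctrl at d16V. It was at most 0.0513 FPKM in the libraries of the earlier stages. POU5F1, the stem cell factor OCT4, lay between 326 and 385 FPKM in the d0 libraries and between 5.64 and 34.2 FPKM in the d16 libraries, and PAX6, a neural progenitor factor, was listed at 0 at d0 and lay between 1.58 and 8.40 FPKM at d16. The cultures were not purely neural: the summed FPKM of 8 endoderm markers was 2726 in V1PAKI and 474 in Ctrl at d16D, and that of 14 mesoderm and mesenchyme markers was 1284 in V1PAKI and 194 in Ctrl at d16D and 250 in V1PAKI and 1051 in Ctrl at d10. At d16V the order of the lines was the other way round, with an endoderm sum of 22.5 in V1PAKI and 293 in Ctrl and a mesoderm sum of 14.6 in V1PAKI and 327 in Ctrl. In bulk RNA, fewer cells of a type and less RNA per cell cannot be told apart.

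Most of the family was expressed at a low level in all 10 libraries. By their median over the libraries, 5 members lay at 5 FPKM or more, 18 between 1 and 5 FPKM and 6 under 1 FPKM. In all, 19 members had at least 1 FPKM in every library, a level that 24.5% of the table reached. The order of the medians was led by ZSCAN10 at 24.3 FPKM, ZKSCAN8 at 9.26, ZSCAN29 at 7.89, ZKSCAN1 at 7.59 and ZSCAN21 at 5.97 FPKM. ZSCAN29 kept between 6.71 and 9.86 FPKM across lines and stages. ZKSCAN8 lay between 6.09 and 13.1 FPKM, so its range and that of ZSCAN29 overlapped. ZKSCAN4 was the steadiest of the members above 0 in every library, with 1.28 FPKM at the lowest and 1.74 at the highest, a ratio of 1.36. ZSCAN32 followed with a ratio of 1.44 and ZSCAN29 with 1.47. At the other end stood ZSCAN10 with a ratio of 45.1, ZSCAN18 with 5.83, ZSCAN23 with 5.25, ZKSCAN1 with 4.34 and ZSCAN2 with 3.93. On the opposite strand, ZSCAN32 shares 72.3% of its exon bases with AC025283.2 and ZSCAN21 shares 41.1% with ZNF3. Part of the values of ZSCAN32 and ZSCAN21 may therefore come from the other strand.

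**Figure D1:**
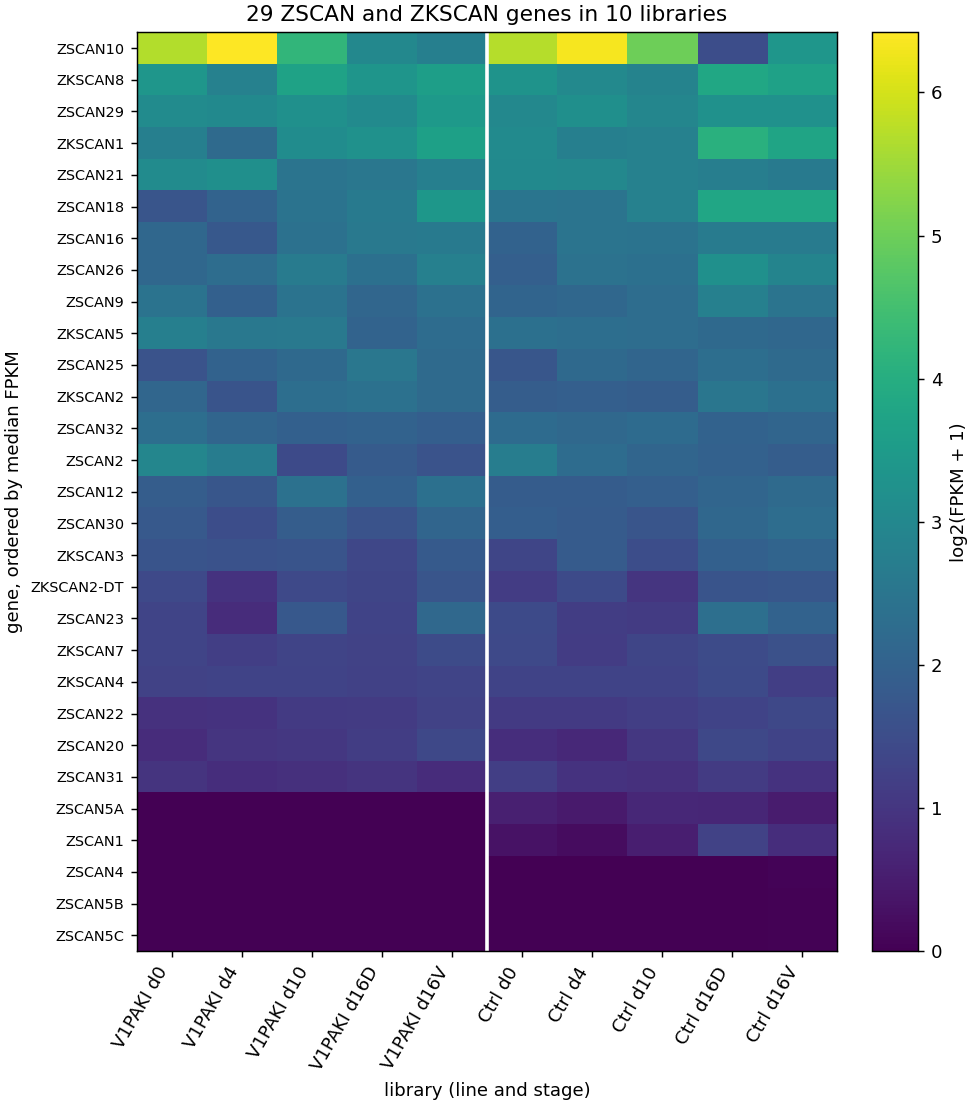
Level of the 29 ZSCAN and ZKSCAN genes (vertical, ordered by median FPKM) in the 10 libraries (horizontal, V1PAKI left of the white line and Ctrl right of it), as log2(FPKM + 1) by colour. ZSCAN10 is brightest at d0 and d4 in both lines, and ZSCAN5A and ZSCAN1 are dark in the 5 V1PAKI libraries.

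The family is scattered in clusters, and 24 of the 29 members lie on chromosomes 6, 7, 16 and 19. On the GRCh38 build, 9 members lie within 319 kb of chromosome 6, 7 members within 2153 kb of chromosome 19, 4 on chromosome 7 and 4 on chromosome 16. Clustered members differed widely in level. On chromosome 19, ZSCAN18 had a median of 4.93 FPKM, ZSCAN22 of 1.15 FPKM, and ZSCAN4, ZSCAN5B and ZSCAN5C were listed at 0 in 9 of 10 libraries, each with a value only in Ctrl d16V, of 0.0366 FPKM for ZSCAN4, 0.0214 for ZSCAN5B and 0.0181 for ZSCAN5C. Of 15 genes known from the same cleavage-stage programme as ZSCAN4, 8 are in the table, and CCNA1, a cyclin that is also active elsewhere, was the only one of them with enough signal to test.

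ZSCAN10, on the minus strand of chromosome 16 (positions 3088890 to 3099317), had the largest change of the 24 members tested. In V1PAKI it was at 50.4 FPKM at d0, 84.7 at d4, 17.6 at d10, 7.05 at d16D and 5.82 at d16V. In Ctrl it was at 51.5 FPKM at d0, 79.2 at d4, 30.9 at d10, 1.88 at d16D and 9.43 at d16V. Both lines thus had their highest value at d4 and every d16 value below every d0 value. In a model of stage and genotype over all 10 libraries (limma on log2(FPKM + 1), adjusted over 15622 genes), ZSCAN10 fell by 3.43 on the log2 scale in the d16 libraries relative to d0 (SE 0.38, adjusted p = 0.00102). This call held with each of the 10 libraries left out in turn, with changes between -3.86 and -3.00.

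The stages between were less well resolved. The higher values at d4 relative to d0 did not pass (0.41 on the log2 scale, SE 0.44, adjusted p = 0.724 by limma), nor did the lower values at d10 relative to d4 (-1.60, SE 0.44, adjusted p = 0.10). At d16D relative to d10 ZSCAN10 fell by 2.66 on the log2 scale (SE 0.44, adjusted p = 0.0392 by limma). That call was lost when any library except V1PAKI d16D or Ctrl d16D was left out (changes between -3.53 and -1.80), and also when the trend of each library on GC content and gene length was left in (-2.34, adjusted p = 0.0834). At d16V relative to d10 it did not pass (-1.84, SE 0.44, adjusted p = 0.0968 by limma). Without the V1PAKI d16D library the d10 and d16V steps passed by limma, with an adjusted p of 0.00907 for d10 relative to d4 and 0.00468 for d16V relative to d10. Without the Ctrl d16D library they passed as well, at 0.00923 for d10 relative to d4 and 0.00497 for d16V relative to d10.

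The lines did not differ in ZSCAN10 in a steady direction. At d16D the value in V1PAKI was above that in Ctrl by 1.48 on the log2 scale, and at d10 and d16V it was below by 0.78 and 0.61. POU5F1 had the same order of lines at these stages, with 62.7 FPKM in V1PAKI and 134 FPKM in Ctrl at d10, 34.2 in V1PAKI and 5.64 in Ctrl at d16D, and 6.85 in V1PAKI and 17.6 in Ctrl at d16V. The order was not shared by all of 20 stem cell genes: V1PAKI was above Ctrl for 7 of them at d10, 16 at d16D and 6 at d16V. NANOG, another stem cell factor, was at 1.45 FPKM in V1PAKI and 0.106 FPKM in Ctrl at d16D. DPPA4, also a stem cell gene, had the opposite order, at 68.8 FPKM in V1PAKI and 52.3 in Ctrl at d10, 18.5 in V1PAKI and 21.2 in Ctrl at d16D, and 32.6 in V1PAKI and 27.2 in Ctrl at d16V. The part of stem cell content in these values was not tested. Over the 5 stages the genotype term for ZSCAN10 was 0.11 (SE 0.28, adjusted p = 1.00 by limma).

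**Figure D2:**
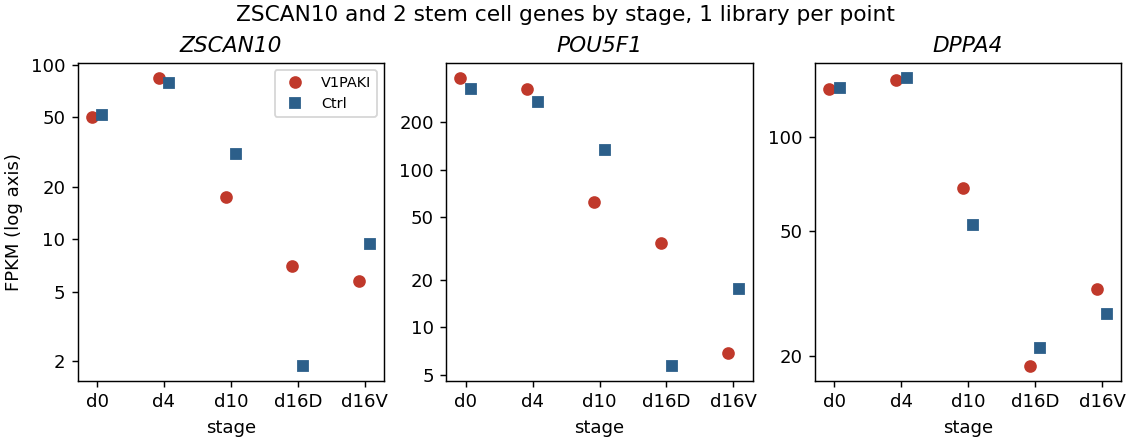
FPKM (log axis) of ZSCAN10, POU5F1 and DPPA4 by stage, 1 library per point, with V1PAKI as circles and Ctrl as squares. ZSCAN10 stands at 84.7 FPKM in V1PAKI and 79.2 FPKM in Ctrl at d4, and at 7.05 FPKM in V1PAKI and 1.88 FPKM in Ctrl at d16D.

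On chromosome 19, a pair of members stood at 0 in every V1PAKI library and above 0 in every Ctrl library. ZSCAN5A (minus strand, 56219670 to 56368383), whose product belongs to a small group of closely related SCAN proteins, was listed at 0 in all 5 V1PAKI libraries and was at 0.471, 0.385, 0.650, 0.608 and 0.404 FPKM in Ctrl at d0, d4, d10, d16D and d16V. ZSCAN1 (plus strand, 58034032 to 58054631), known as the target of autoantibodies in a paraneoplastic syndrome of the hypothalamus, was listed at 0 in all 5 V1PAKI libraries and was at 0.242, 0.155, 0.441, 1.40 and 0.800 FPKM in Ctrl. Both genes are low in Ctrl, and an exact 0 in such a table can be a failed estimate. The 2 lines did not overlap for either gene.

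Few genes of the table shared this pattern. Of the 22165 genes above 0 in all 5 Ctrl libraries, 18 had a value of 0 in all 5 V1PAKI libraries, which is 0.0812%, and 2 of the 18 were ZSCAN5A and ZSCAN1. The reverse pattern was found for 2 of 22253 genes, which is 0.00899%. Of the 18 genes, 11 lie on chromosome 19 and 9 have zinc finger symbols, among them the pseudogene ZNF542P and the noncoding RNA ZNF582-AS1. ZSCAN5A, EDDM13, AC006116.8, ZNF542P, ZNF582, ZNF582-AS1 and ZNF583 come from a single stretch described below, so the genes counted are not independent. The shares of chromosome 19 genes and of zinc finger symbols among the 22165 genes are not given, so no enrichment is read from these counts. ZSCAN5A and ZSCAN1 did not have 1 FPKM in 2 libraries and were left out of the main model. Fitted with no filter, ZSCAN5A stood at -0.58 (SE 0.08, adjusted p = 0.274 by limma) and ZSCAN1 at -0.60 (SE 0.16, adjusted p = 1.00 by limma), so neither passed. Without removal of the GC and length trend, the mean log2 difference over the 5 stages was -0.58 (SD 0.11) for ZSCAN5A and -0.63 (SD 0.43) for ZSCAN1.

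The zeros around ZSCAN5A ran over its neighbours and over genes that start within its own span (56219670 to 56368383), such as EDDM13 and AC006116.8. From ZSCAN5B to ZNF583, 21 annotated genes in a row (chromosome 19, 56189570 to 56436035, 246 kb) had a value of 0 in each V1PAKI library, and 16 of them were above 0 in at least 3 of the 5 Ctrl libraries. No other such run in V1PAKI, and none in Ctrl, held more than 2 such genes. The next longest in V1PAKI lie further along the same part of chromosome 19, from 56477250 to 56538575 and from 56661981 to 56848556. ZNF667, a KRAB zinc finger gene between ZNF583 and these runs, was listed at 0 in 4 V1PAKI libraries and at 0.00538 FPKM in V1PAKI d16V. In Ctrl ZNF667 was at 1.31 FPKM at d0, 0.0344 at d4 and 0.0293 at d16V, and was listed at 0 at d10 and d16D. ZNF542P, a transcribed pseudogene that starts head to head with ZSCAN5A, was listed at 0 in V1PAKI and lay between 1.89 and 3.91 FPKM in Ctrl. ZNF582, a KRAB zinc finger gene, was listed at 0 in V1PAKI and lay between 0.525 and 1.25 FPKM in Ctrl. On the near side, ZNF787 lay between 3.81 and 13.9 FPKM in V1PAKI and between 4.71 and 13.9 FPKM in Ctrl. ZNF444, itself a SCAN-domain gene, lay between 3.61 and 8.47 FPKM in V1PAKI and between 2.83 and 8.37 FPKM in Ctrl, so the lines overlapped for both. GALP, between ZNF444 and ZSCAN5B, was lower in V1PAKI at all 5 stages. It lay between 0 and 0.358 FPKM in V1PAKI and between 0.0412 and 1.56 FPKM in Ctrl, with overlapping ranges. ZFP28, on the far side, was at most 0.0712 FPKM in V1PAKI and between 0.504 and 1.70 FPKM in Ctrl. ZNF470, further along, lay between 0.192 and 0.801 FPKM in V1PAKI and between 1.05 and 1.36 FPKM in Ctrl, again with no overlap. ZNF71, beyond ZNF470, was lower in V1PAKI at all 5 stages, though the ranges of the lines overlapped. ZSCAN5A and ZNF542P share 175 exon bases on opposite strands, and the treatment of strand is not given in the sources used here.

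**Figure D3:**
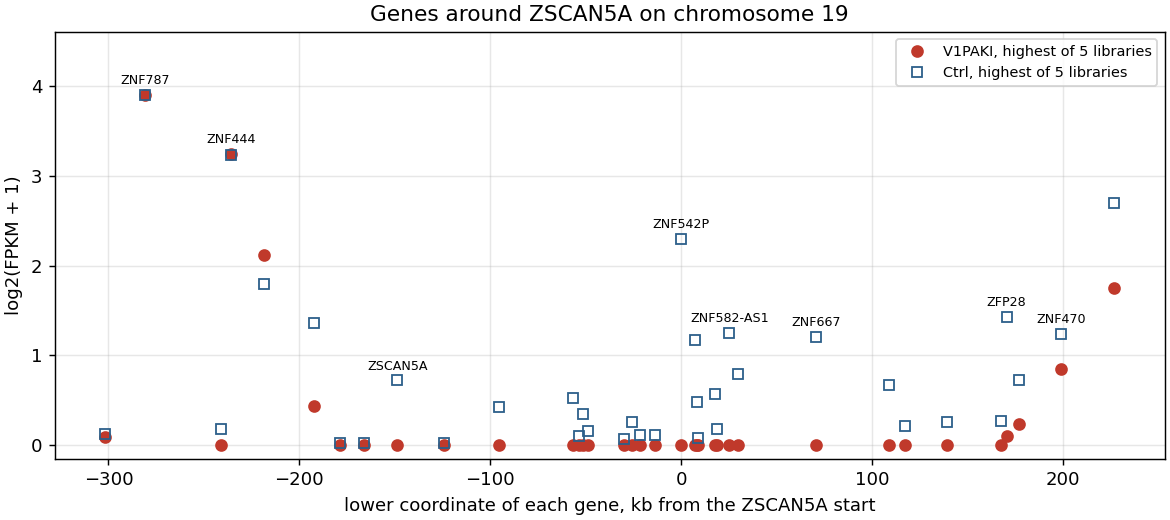
Highest level of each gene over 5 libraries, as log2(FPKM + 1), against the distance in kb of its lower coordinate from the ZSCAN5A start, with V1PAKI as filled circles and Ctrl as open squares. The filled circles lie at 0 from ZSCAN5B to ZNF583, while the open squares reach 3.91 FPKM at ZNF542P in the same stretch.

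ZSCAN1, 1666 kb further along, did not stand in a run of that kind. ZNF606 and ZNF329, within 100 kb of it, were expressed in both lines, at 1.55 to 3.60 FPKM in V1PAKI and 1.90 to 4.65 FPKM in Ctrl for ZNF606 and at 3.21 to 5.12 FPKM in V1PAKI and 3.84 to 4.73 FPKM in Ctrl for ZNF329. ZNF135 starts between ZSCAN1 and ZSCAN18 and shares 2091 exon bases with ZSCAN18 on the opposite strand. It was at 0.0166 to 0.554 FPKM in V1PAKI and 0.660 to 1.16 FPKM in Ctrl, with no overlap of the lines.

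ZSCAN18 (minus strand, 58083838 to 58118427), whose promoter is often methylated in tumours of the gut, was at 2.21, 3.10, 4.47, 5.23 and 9.59 FPKM in V1PAKI and at 4.62, 4.58, 6.04, 12.9 and 12.9 FPKM in Ctrl, in the order d0, d4, d10, d16D and d16V. V1PAKI was the lower line at each of the 5 stages, though the ranges of the lines overlapped. It had the smallest p of the 24 tested members for genotype, -0.56 on the log2 scale (SE 0.17, unadjusted p = 0.0113, adjusted p = 1.00 by limma), and did not pass. ZSCAN22 (plus strand, 58327019 to 58342332) was lower in V1PAKI at each stage by a small and even step, with 0.894, 0.907, 1.12, 1.18 and 1.41 FPKM in V1PAKI and 1.12, 1.13, 1.28, 1.43 and 1.63 FPKM in Ctrl. Without removal of the GC and length trend, the mean log2 difference of ZSCAN22 was -0.14 (SD 0.02). With the trend removed, its genotype term was -0.10 (SE 0.10, unadjusted p = 0.349 by limma) and did not pass. ZSCAN18 shares 25.2% of its exon bases with ZNF135 on the opposite strand, so reads of the pair cannot be told apart with certainty.

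**Figure D4:**
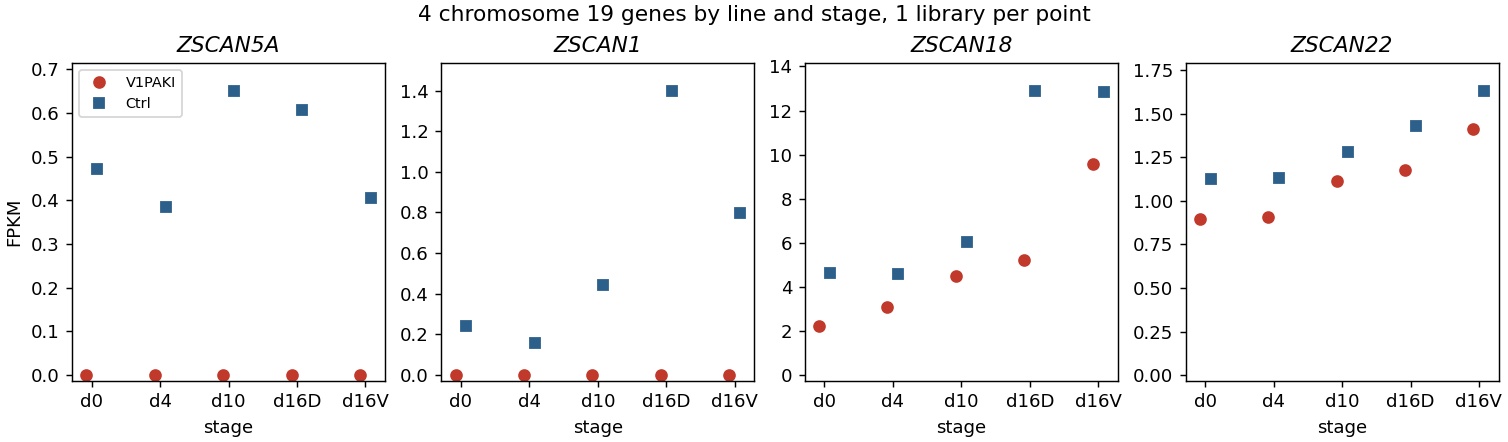
FPKM of 4 chromosome 19 members by stage, 1 library per point, with V1PAKI as circles and Ctrl as squares. ZSCAN5A and ZSCAN1 lie at 0 in V1PAKI, ZSCAN18 reaches 9.59 FPKM in V1PAKI and 12.9 FPKM in Ctrl at d16V, and ZSCAN22 reaches 1.41 FPKM in V1PAKI and 1.63 FPKM in Ctrl.

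The starts of these genes are shown for their content of CG dinucleotides, the sites of DNA methylation, because the 3 chromosome 19 members and the stem cell gene ZSCAN10 differ in it. Each window runs from 250 bases before to 50 bases after an annotated start (RefSeq, GRCh38.p14), read 5′ to 3′ on the gene's strand, with every CG in capitals. The windows are chr19:56368229-56368528 on the minus strand for ZSCAN5A, chr19:58033775-58034074 on the plus strand for ZSCAN1, chr19:58118355-58118654 on the minus strand for ZSCAN18 and chr16:3099245-3099544 on the minus strand for ZSCAN10.
ZSCAN5A: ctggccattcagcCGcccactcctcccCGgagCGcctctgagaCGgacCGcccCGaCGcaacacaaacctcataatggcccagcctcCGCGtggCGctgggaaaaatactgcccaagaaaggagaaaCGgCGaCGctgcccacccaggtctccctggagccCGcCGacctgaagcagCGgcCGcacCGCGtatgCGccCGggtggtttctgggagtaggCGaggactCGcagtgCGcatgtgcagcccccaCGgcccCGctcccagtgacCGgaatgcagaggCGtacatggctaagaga
ZSCAN1: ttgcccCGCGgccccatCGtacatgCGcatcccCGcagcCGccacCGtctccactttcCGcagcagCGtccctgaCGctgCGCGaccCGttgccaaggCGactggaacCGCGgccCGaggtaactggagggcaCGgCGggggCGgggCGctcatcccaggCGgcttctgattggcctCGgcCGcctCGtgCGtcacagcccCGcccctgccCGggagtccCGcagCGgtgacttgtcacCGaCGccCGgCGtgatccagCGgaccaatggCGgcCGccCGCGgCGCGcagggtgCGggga
ZSCAN18: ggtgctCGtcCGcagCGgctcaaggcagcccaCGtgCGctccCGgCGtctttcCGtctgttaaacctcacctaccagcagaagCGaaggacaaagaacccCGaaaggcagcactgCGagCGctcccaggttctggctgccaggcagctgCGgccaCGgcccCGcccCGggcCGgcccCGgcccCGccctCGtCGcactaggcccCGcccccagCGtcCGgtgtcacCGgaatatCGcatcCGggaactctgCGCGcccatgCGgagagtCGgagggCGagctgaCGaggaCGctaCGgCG
ZSCAN10: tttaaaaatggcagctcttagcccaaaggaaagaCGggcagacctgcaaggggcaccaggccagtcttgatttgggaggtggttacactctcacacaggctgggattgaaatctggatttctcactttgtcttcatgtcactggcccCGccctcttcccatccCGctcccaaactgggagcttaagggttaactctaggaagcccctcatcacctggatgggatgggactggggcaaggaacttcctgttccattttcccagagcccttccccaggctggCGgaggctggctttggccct

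ZSCAN5A held 28 CG in its window, a number that 26.2% of the 35116 RefSeq promoter windows reach or exceed. ZSCAN1 held 42 (5.85% of windows) and ZSCAN18 held 36 (12.7%). ZSCAN22 held 17 (46.0%), and ZSCAN10 held 4 (75.5%). The median was 14 per window over all of them and 21 over the 39 windows of the 24 members that have one. Methylation was not measured in these samples, and nothing follows from the letters about it.

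Across the family, no member passed for genotype. Of the 24 members with enough signal, 0 were called over the stages by limma. Of 15622 genes 0.0192% were, 3 in all and each lower in V1PAKI. The only member with an unadjusted p under 0.05 was ZSCAN18, beside 3.44% of all genes. Of the 24, 8 lay above 0 and 16 below (median -0.07), while 43.8% of all genes tested lay above 0 (median -0.02). Without V1PAKI d16D, and likewise without Ctrl d16D, the median of the members was 0.005. With any other library left out it lay between -0.11 and -0.06. ZSCAN18, ZSCAN22 and ZSCAN31 were lower in V1PAKI at all 5 stages, which is 12.5% of the members tested and 2.62% of all genes tested, and no tested member was higher at all 5. No tested member had the lines apart in all libraries, a pattern that 0.192% of genes showed with V1PAKI lower and 0.141% with V1PAKI higher. The edit and the history of each cell line cannot be told apart here, since there is 1 line of each genotype.

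At single stages, where no test is possible, members differed little except at d16D. No member of the 23 with at least 1 FPKM in either library differed by 1 or more on the log2 scale at d0 (4.55% of genes did), d4 (1.65%), d10 (11.2%) or d16V (2.9%). At d16D 4 of 25 members did, where 8.96% of genes did. ZSCAN10 was higher in V1PAKI (1.48), beside 5.5% of genes, and ZSCAN1 (-1.26), ZSCAN18 (-1.15) and ZSCAN23 (-1.06) were lower, beside 3.46% of genes. ZSCAN23, one of the chromosome 6 members, was at 1.43 FPKM in V1PAKI and 4.06 FPKM in Ctrl there. At d16D 21 of the 24 tested members were lower in V1PAKI (median -0.19), as were 57.8% of all genes tested (median -0.08). The other stages varied, with 11 of the 24 lower in V1PAKI at d0 (36.7% of genes), 18 at d4 (60.3%), 9 at d10 (52.4%) and 16 at d16V (64.4%). At d16D the endoderm and mesoderm marker sums given above were higher in V1PAKI. The sum of 15 neural progenitor markers at d16D was 353 FPKM in V1PAKI and 796 FPKM in Ctrl. Their part in the differences was not tested.

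Over the course of differentiation, the share of members called was close to that of all genes. Between d16 (both arms) and d0, 8 of 24 members rose and 2 fell by limma, where 20.7% of all genes rose and 18.1% fell. The members called in either direction make up 41.7%, beside 38.7% of all genes. The median change was 0.34 for the members and 0.08 for all genes. With the GC and length trend left in, 4 members rose and 2 fell, where 32.4% of genes were called. With every library scaled to the same total (TPM), 12 rose and 2 fell, where 31.4% of all genes rose and 13.2% fell, and the median of all genes stood at 0.30. With 1 library left out the number of members called was 5 without V1PAKI d0 (25.6% of all genes were called in that fit), 3 without V1PAKI d16V (24.1%), 3 without Ctrl d0 (16.8%) and 5 without Ctrl d16V (25.8%). All 4 d16 values lay above both d0 values for 9 of the 24 members (29.9% of genes) and below both for 5 (28% of genes).

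**Figure D5:**
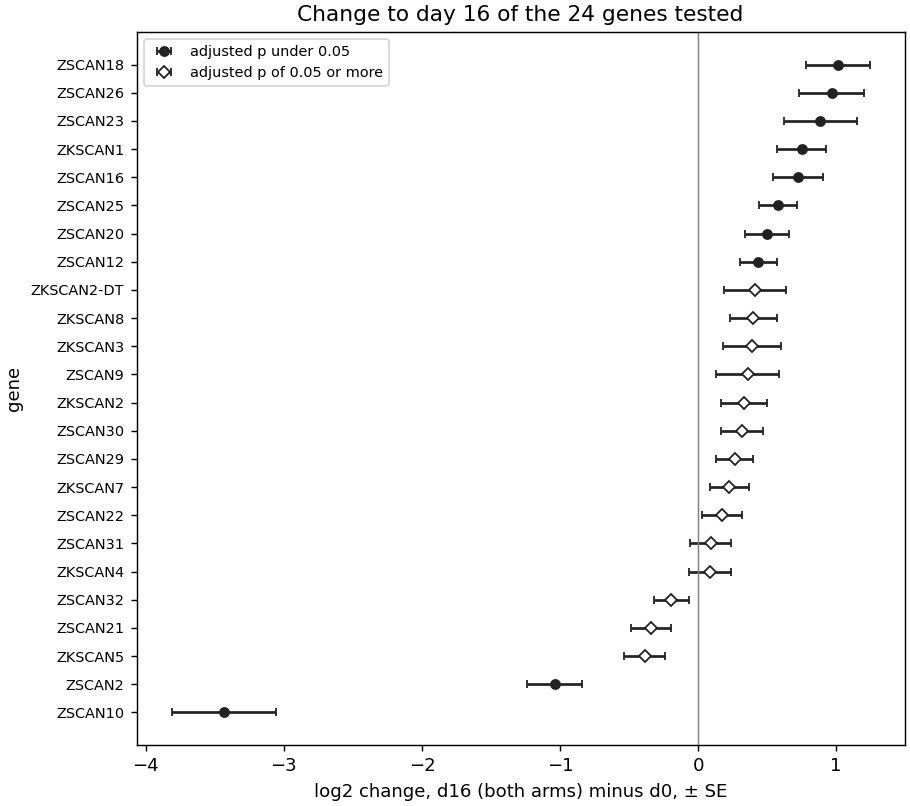
Log2 change of each of the 24 tested members in the d16 libraries (both arms) minus d0, with its standard error as a bar, from limma. Filled points have an adjusted p under 0.05: 8 lie to the right of 0, up to 1.01 for ZSCAN18, and 2 to the left, ZSCAN2 at -1.04 and ZSCAN10 at -3.43.

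ZSCAN18 rose most, by 1.01 on the log2 scale (SE 0.23, adjusted p = 0.0133 by limma), a call lost only without V1PAKI d0 among the 10 libraries left out. ZKSCAN1, host of an abundant circular RNA, was at 5.84, 3.68, 7.74, 8.45 and 11.6 FPKM in V1PAKI and at 7.43, 5.83, 6.13, 15.9 and 12.5 FPKM in Ctrl, in stage order. Its 4 d16 values were above both d0 values, and it rose by 0.75 (SE 0.18, adjusted p = 0.0150 by limma). The call was lost without V1PAKI d16V (adjusted p = 0.0565) or Ctrl d0 (adjusted p = 0.120).

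ZSCAN26, first described as a protein that binds the serum response element, was at 3.46, 3.90, 5.34, 4.19 and 5.93 FPKM in V1PAKI and at 2.87, 4.39, 4.17, 8.39 and 6.40 FPKM in Ctrl. It rose by 0.97 (SE 0.24, adjusted p = 0.0177 by limma), lost without V1PAKI d16V or Ctrl d0. ZSCAN25 was at 2.14, 3.05, 3.58, 4.88 and 3.69 FPKM in V1PAKI and at 2.27, 3.54, 3.29, 3.97 and 3.63 FPKM in Ctrl. It was lowest at d0 in both lines and rose by 0.58 (SE 0.14, adjusted p = 0.0163 by limma), lost without either d0 or either d16V library.

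ZSCAN16 rose by 0.73 (SE 0.18, adjusted p = 0.0184 by limma), lost without V1PAKI d16V, Ctrl d0 or Ctrl d16V. ZSCAN23 rose by 0.89 (SE 0.27, adjusted p = 0.0357 by limma). Its V1PAKI d16D value of 1.43 FPKM nevertheless lay below both d0 values, 1.48 FPKM in V1PAKI and 1.72 FPKM in Ctrl. ZSCAN20 rose by 0.50 (SE 0.16, adjusted p = 0.0435 by limma) and ZSCAN12 by 0.43 (SE 0.13, adjusted p = 0.0378 by limma). These last 3 calls were the least steady. The call of ZSCAN23 held in 4 of 10 fits with 1 library left out, and those of ZSCAN20 and ZSCAN12 in 1 of 10, the fit without V1PAKI d16D. With the GC and length trend left in, ZSCAN12, ZSCAN16, ZSCAN20 and ZSCAN23 did not pass.

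ZSCAN2 fell beside ZSCAN10. It was at 6.73, 5.54, 1.71, 2.56 and 2.15 FPKM in V1PAKI and at 5.59, 3.85, 3.24, 3.01 and 2.72 FPKM in Ctrl. The d0 values stood above every d16 value, and the fall was 1.04 on the log2 scale (SE 0.20, adjusted p = 0.00699 by limma), with the call lost only without V1PAKI d0 (-0.88, adjusted p = 0.0603). ZSCAN2 shares 25.1% of its exon bases with an antisense RNA, AC048382.6, so part of its value may come from the other strand.

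The 9 chromosome 6 members lay in one stretch (28124560 to 28443502), and all 9 stood above 0 in the d16 minus d0 change (median 0.40), while 55.1% of all genes did; 8 of 9 did so with the trend left in, with no filter and without Ctrl d16D. Of the 9, ZSCAN12, ZSCAN16, ZSCAN23 and ZSCAN26 passed by limma, beside 38.7% of all genes. None of the 9 passed with no filter (13.1% of genes did), without V1PAKI d16V (24.1%) or without Ctrl d0 (16.8%), and 1 passed with the trend left in (32.4%) or without Ctrl d16V (25.8%). ZSCAN31 was at 0.09 (SE 0.15, adjusted p = 0.652) and ZKSCAN3, a repressor of autophagy genes, at 0.39 (SE 0.21, adjusted p = 0.174). ZKSCAN3 lay between 1.60 and 2.55 FPKM in V1PAKI and between 1.53 and 3.23 FPKM in Ctrl. On chromosome 7, ZKSCAN1 and ZSCAN25 passed upwards, while ZSCAN21, a gene reported to act on the alpha-synuclein promoter, and ZKSCAN5 lay below 0 (-0.34 for ZSCAN21 and -0.39 for ZKSCAN5) without passing.

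Between neighbouring stages almost no member passed. At d4 relative to d0 limma called 0 of 24 members (1.47% of genes), and 1 had an unadjusted p under 0.05 (15.4% of genes). The smallest p belonged to ZSCAN25 (0.44, SE 0.16, adjusted p = 0.252 by limma). At d10 relative to d4, 0 members were called (3.06% of genes) and 3 had an unadjusted p under 0.05 (21.1% of genes). At d16D relative to d10, ZSCAN10 was the only member called (1.61% of genes in either direction, 0.813% lower). At d16V relative to d10, 0 were called (0.999% of genes) and 6 had an unadjusted p under 0.05 (22.8% of genes). These counts moved with the d16D libraries. With V1PAKI d16D left out 1 member was called for d10 relative to d4 (7.38% of genes), 4 for d16D relative to d10 (8.03%) and 3 for d16V relative to d10 (8.97%). With Ctrl d16D left out 1 was called for d10 relative to d4 (7.38%), 1 for d16D relative to d10 (0.781%) and 3 for d16V relative to d10 (8.90%). The median of the members was 0.24 at d16D and 0.30 at d16V relative to d10, beside 0.05 and 0.06 over all genes.

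No member passed between the d16V and d16D arms. Limma called 0 of 24 members (0.269% of genes), none with an unadjusted p under 0.05 (6.61% of genes). ZSCAN10 was at 5.82 FPKM in d16V and 7.05 FPKM in d16D of V1PAKI, and at 9.43 FPKM in d16V and 1.88 FPKM in d16D of Ctrl, so the lines moved in opposite directions (0.83, SE 0.44, adjusted p = 0.864 by limma).

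Other SCAN-domain genes that carry other names were compared from a list of 27, of which 24 could be tested. Between d16 and d0, 5 rose and 5 fell by limma, where 20.7% of all genes rose and 18.1% fell, with a median of 0.25, beside 0.34 for the ZSCAN and ZKSCAN members and 0.08 for all genes. MZF1, first found in myeloid cells, rose by 1.29 (SE 0.17, adjusted p = 0.00209 by limma), with 2.62, 2.95, 4.46, 6.62 and 9.64 FPKM in V1PAKI and 3.45, 4.78, 6.10, 11.5 and 11.2 FPKM in Ctrl. ZNF446 rose by 1.03, ZNF445, which helps keep imprints, by 0.56, PGBD1, a SCAN gene with a transposase domain, by 0.50, and ZNF197 by 0.47. ZNF483 fell by 1.28, ZNF165 by 1.08, ZNF202 by 0.84, ZNF215 by 0.73 and ZNF496 by 0.46. ZNF75D stood at 5.53 FPKM in V1PAKI and 3.99 FPKM in Ctrl at d4, above all other libraries. It rose by 1.28 at d4 relative to d0 (SE 0.18, adjusted p = 0.0314 by limma), as 0.858% of genes did, and fell by 1.02 at d10 relative to d4 (SE 0.18, adjusted p = 0.0358 by limma), as 1.46% did.

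PEG3, an imprinted gene with a SCAN domain that lies in the same part of chromosome 19 as ZSCAN5A, was listed at 0 in all 5 V1PAKI libraries. In Ctrl it was at 5.33 FPKM at d0, at 0.0152 FPKM at d16V and listed at 0 at the other 3 stages, so the lines overlapped. Among the 11 corepressor and silent chromatin genes, SETDB1, the histone methyltransferase that TRIM28 recruits, rose by 0.59 between d16 and d0 (SE 0.16, adjusted p = 0.0257 by limma), and CBX5 rose by 0.57. TRIM28 fell by 0.67 (SE 0.13, adjusted p = 0.00689 by limma) and MORC2 by 0.60. In that comparison 20.7% of all genes rose and 18.1% fell. None of the 11 was called for genotype, where 0.0192% of all genes were.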

How the data were processed

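Per the labels' protocols, Trizol RNA went into TruSeq RNA libraries of H9 cells, 5 of V1PAKI and 5 of Ctrl. The authors deposited FPKM values for 42335 genes in 10 libraries. Per the submitters' processing notes, cutadapt 1.18, HISAT2 2.1.0 and Cufflinks were used with GRCh38. The annotation, filters and strand setting were not given in sources used here. FPKM summed to between 200509 and 256270 per library, and between 10193 and 15177 genes were listed at 0. The depth is unknown, so neither counting intervals nor detection floors are given.

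Members were found by symbol, and all 29 matched a GRCh38 annotation (GENCODE), which gave coordinates, GC content and length. The members and lists were chosen with earlier results of these data known. Values were analysed as log2(FPKM + 1), so changes of low genes are understated. A gene was kept if 2 or more libraries had 1 FPKM or more, and if GC and length were known (99.0% of the kept genes). Each library's smooth trend on GC and log2 length (natural splines, 4 degrees of freedom) was removed, and 15622 genes, 24 of them members, were fitted with limma 3.58.1 in R 4.3.3 (lmFit, eBayes with trend), with stage and genotype as terms. All tests were two-sided, adjusted by Benjamini-Hochberg over all genes, at a threshold of 0.05. With 1 library per line and stage, residuals (4 degrees of freedom, 7.27 after moderation) measure how far the lines differ over stages, not the spread of repeated cultures. The labels name no separate cultures. The code was tested on simulated data.

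Changes were printed for members past the threshold, for the smallest p in a comparison, and for ZSCAN10, ZKSCAN1 and ZKSCAN3. ZSCAN4 was also chosen, but was too low to be tested. ZSCAN21, ZKSCAN5, ZSCAN31, ZSCAN22, the unfiltered values of ZSCAN5A and ZSCAN1, and the neighbours of ZSCAN5A and ZSCAN1 were named after their values were seen. At a single stage, members that differed by 1 or more on the log2 scale were named, with no test. Alternatives were a pseudocount of 0.1, no filter, a filter of 5 FPKM, TPM, median-of-ratios scaling, the trend left in, the other factor left out of the model, and each library left out.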

Additional observations from a re-analysis of the deposited data

Results flagged for a closer look

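ZSCAN10 moved in opposite directions in the 2 lines between the day 16 arms. From its log2(FPKM + 1) values, d16V minus d16D was -0.24 in V1PAKI and 1.86 in Ctrl. With 1 library per line and arm the difference between the lines was not tested.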

How the results depend on the processing

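No pairing beyond stage was possible because the labels give no replicate numbers. The lines were matched by stage alone, which is a term of the model. Between d16 and d0, 10 members were called (38.7% of all genes), against 5 with no filter (13.1%). With a filter of 5 FPKM, 6 of 9 tested were called (41.3%), and with the GC and length trend left in, 6 were (32.4%). At d16D relative to d10 the 1 call (1.61% of all genes) became 0 with no filter (0.306%) and 0 with the trend left in (0.932%). At single stages, the members that differed by 1 or more numbered 1 at d0 with a pseudocount of 0.1 and 1 with TPM (0 in the main values), 2 at d10 with TPM (0), and 2 at d16D among members with at least 5 FPKM (4). The share of all genes under these settings is not given, so nothing about the members is read from these counts. With each library left out in turn, the number of members called lay between 3 and 12 for d16 minus d0, 0 and 4 for d16D minus d10, 0 and 3 for d16V minus d10, 0 and 1 for d10 minus d4, and at 0 for d4 minus d0, d16V minus d16D and genotype. As given above, the share of all genes called moved between such fits as well. The d16V minus d16D change of ZSCAN10 lay between -0.037 (without Ctrl d16D, reversed) and 1.69 (without V1PAKI d16D). TPM gave a median of all genes of 0.30 for d16 minus d0, against 0.08, and called 4904 genes higher and 2064 lower, against 3231 and 2821; among the members it called 12 higher and 2 lower, against 8 and 2. The cause was not tested. ZSCAN10 for d16 minus d0 stayed called under all 7 alternatives, between -3.85 and -3.03. Low values limit ZSCAN5A, ZSCAN1 and ZSCAN4, whose depth is unknown.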
